A study of Homo sapiens with 4 samples.

Results

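The genes described here were 10 early response genes outside the AP-1 group, namely EGR1, EGR2, EGR3, EGR4, NR4A1, NR4A2, NR4A3, IER2, IER5 and MYC. The rule lists them by symbol, although it was drawn up with earlier results of these data known, and each had a row among the 37515 genes listed in the count table. Of these 10 genes, 6 passed the filter on low counts and were tested for a difference, among 14820 genes tested in all. The other 4, EGR3, EGR4, NR4A2 and NR4A3, had at most 10 counts in any library and are described by their counts.

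The genes were measured by RNA-seq in Caco-2 cells, an established human colorectal carcinoma line that forms an enterocyte-like monolayer. The cells had been cultured on transwells for 15 days. There were 2 unstimulated libraries, labelled as time 0 and given medium alone, and 2 libraries taken 3 h after 60 ng/ml IFNγ was added to the basal compartment. All 4 libraries were labelled wild type, and no allele, transfection or other agent was given in the labels. Because the unstimulated cells were taken at 0 h, the effect of IFNγ and of the 3 h that had passed cannot be told apart. Nothing in the labels says that the 2 libraries of a group came from separate cultures, so the p-values below measure the spread between these libraries, which may be technical. All values come from 1 cell line, and in bulk RNA a larger share of expressing cells cannot be told apart from more RNA per cell.

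Immediate-early genes are transcribed soon after a cell meets a stimulus, from factors that are already present in the cell, and most of their transcripts are short-lived. EGR proteins are zinc finger transcription factors that bind GC-rich sites, and NR4A proteins are orphan nuclear receptors whose activity is set largely by how much of them is made. IER2 and IER5 are small nuclear proteins without a DNA-binding domain of these classes, and MYC is a basic helix-loop-helix factor that binds E-boxes together with its partner MAX and favours growth and ribosome production. In the intestine, MYC is best known as a target of Wnt signalling in the crypt.

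The promoter sequences are shown because early genes are classically read out from a few short elements close to the start of transcription. RefSeq start-site windows of GRCh38.p14, running from 250 bases before a start to 50 bases after it, were found for 7 of the 10 genes and held 10 starts. EGR3, NR4A2 and MYC had no entry. The 250 bases before the start are given 5′ to 3′ on the strand of the gene for EGR1 (chr5:138465229-138465478, plus strand), for the most downstream of the EGR2 starts (chr10:62816367-62816616, minus strand), for IER2 (chr19:13150161-13150410, plus strand) and for IER5 (chr1:181088450-181088699, plus strand). They were picked to set 2 genes that were called higher beside a gene with a smaller difference and a gene with none called, and capitals mark matches to any of the motifs searched.
EGR1: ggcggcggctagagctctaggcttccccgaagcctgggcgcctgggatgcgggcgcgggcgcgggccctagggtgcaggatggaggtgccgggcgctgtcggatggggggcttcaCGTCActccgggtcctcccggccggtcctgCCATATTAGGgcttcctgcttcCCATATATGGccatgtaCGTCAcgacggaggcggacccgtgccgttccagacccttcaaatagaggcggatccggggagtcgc
EGR2: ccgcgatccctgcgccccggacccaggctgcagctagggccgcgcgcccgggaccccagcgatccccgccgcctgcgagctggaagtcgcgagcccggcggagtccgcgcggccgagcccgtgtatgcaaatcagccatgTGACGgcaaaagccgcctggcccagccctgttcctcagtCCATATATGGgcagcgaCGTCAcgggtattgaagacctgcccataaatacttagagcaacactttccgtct
IER2: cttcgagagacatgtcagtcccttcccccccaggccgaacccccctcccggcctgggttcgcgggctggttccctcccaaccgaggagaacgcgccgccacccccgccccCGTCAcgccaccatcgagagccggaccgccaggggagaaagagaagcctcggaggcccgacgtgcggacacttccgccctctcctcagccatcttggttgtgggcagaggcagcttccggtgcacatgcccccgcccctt
IER5: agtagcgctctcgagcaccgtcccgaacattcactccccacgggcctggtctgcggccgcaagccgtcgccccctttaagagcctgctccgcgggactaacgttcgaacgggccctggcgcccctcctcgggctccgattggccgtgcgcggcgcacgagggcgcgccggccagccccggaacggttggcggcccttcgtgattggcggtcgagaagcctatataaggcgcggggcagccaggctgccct

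The motifs were searched on both strands. They were the CArG box bound by serum response factor (SRF), the cyclic AMP response element TGACGTCA (CRE) and its shorter core TGACG, the EGR sites GCGGGGGCG and GCGTGGGCG, the NR4A site AAAGGTCA, and the E-box CACGTG. The core is contained in the full CRE. In the EGR1 sequence, CArG boxes lay at -105 to -96 and at -83 to -74 from the start, and CRE cores at -135 to -131 and at -66 to -62. The EGR2 sequence held 1 CArG box at -71 to -62, with CRE cores at -110 to -106 and at -54 to -50 on either side of it.

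IER2 held 1 CRE core, at -140 to -136, and IER5 held no match. Among the windows not printed, EGR4 held 2 CRE cores and NR4A3 held 4, the second EGR2 window held an E-box at -30 to -25, and the first EGR2 window and both NR4A1 windows held none of the motifs. NR4A1 thus held no match at a log2 fold change of 0.93, against 0.74 for IER2. Of the EGR2 starts, only the printed one held a CArG box. Whether matches go with the size of the difference was not tested. No window of these genes held a full CRE, an EGR site or an NR4A site. Of all 35116 windows of this length, 1.29% held a CArG box, 24.6% the CRE core, 7.26% an E-box, 5.77% an EGR site, 1.85% a CRE and 1.22% an NR4A site. The CArG box was therefore present in few of all windows, whereas the CRE core was common. A match is a description of the letters and does not show that a factor bound there.

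**Figure D1:**
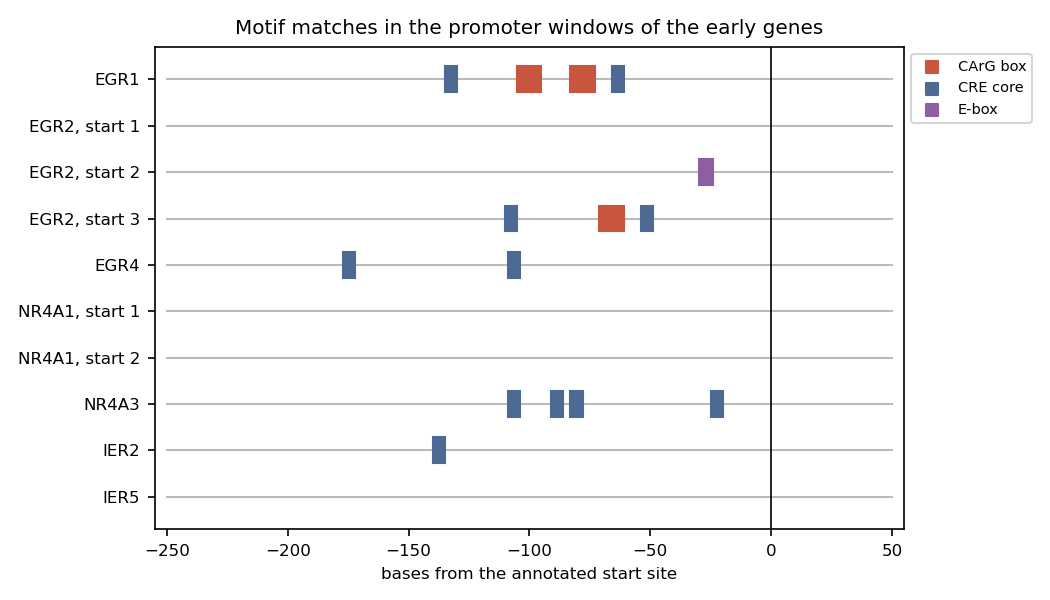
Motif matches in the promoter windows of the early genes. The horizontal axis is the distance from the start of transcription in bases, each line is 1 RefSeq start, and the colours are motifs. CArG boxes appear only in the EGR1 window and in 1 of the 3 EGR2 windows.

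The question put to the data was how the transcripts of these genes stood at 3 h of IFNγ against unstimulated cells. MYC, EGR1 and EGR2 were higher with IFNγ, by 2.87, 2.68 and 2.18 on the log2 scale, and met the call rule, which needs an adjusted p under 0.05 together with a log2 fold change beyond 1 in either direction. NR4A1 and IER2 were higher by 0.93 and 0.74 and passed the adjusted p but not the fold threshold. IER5 had a log2 fold change of -0.39 and did not pass. Adjusted p-values here and below are from edgeR's quasi-likelihood test with Benjamini-Hochberg adjustment over all 14820 genes tested.

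Thus 3 of the 10 genes were called higher and 0 lower, where the background over all tested genes was 2.88% called higher and 4.40% called lower. With edgeR's adjusted p alone and no fold threshold, 5 were higher and 0 lower, beside a background of 9.02% higher and 11.0% lower. At an unadjusted p under 0.05 in edgeR, 5 were higher and 0 lower, beside 2454 and 2785 of all 14820 tested genes. DESeq2 called 2 higher and 0 lower, beside 329 higher and 576 lower over all genes. EGR2 passed the filter on low counts only through its counts in the IFNγ libraries, so it had to differ in order to be tested. Levels below are in CPM, the counts of a gene normalised to the size of its library with TMM factors.

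**Figure D2:**
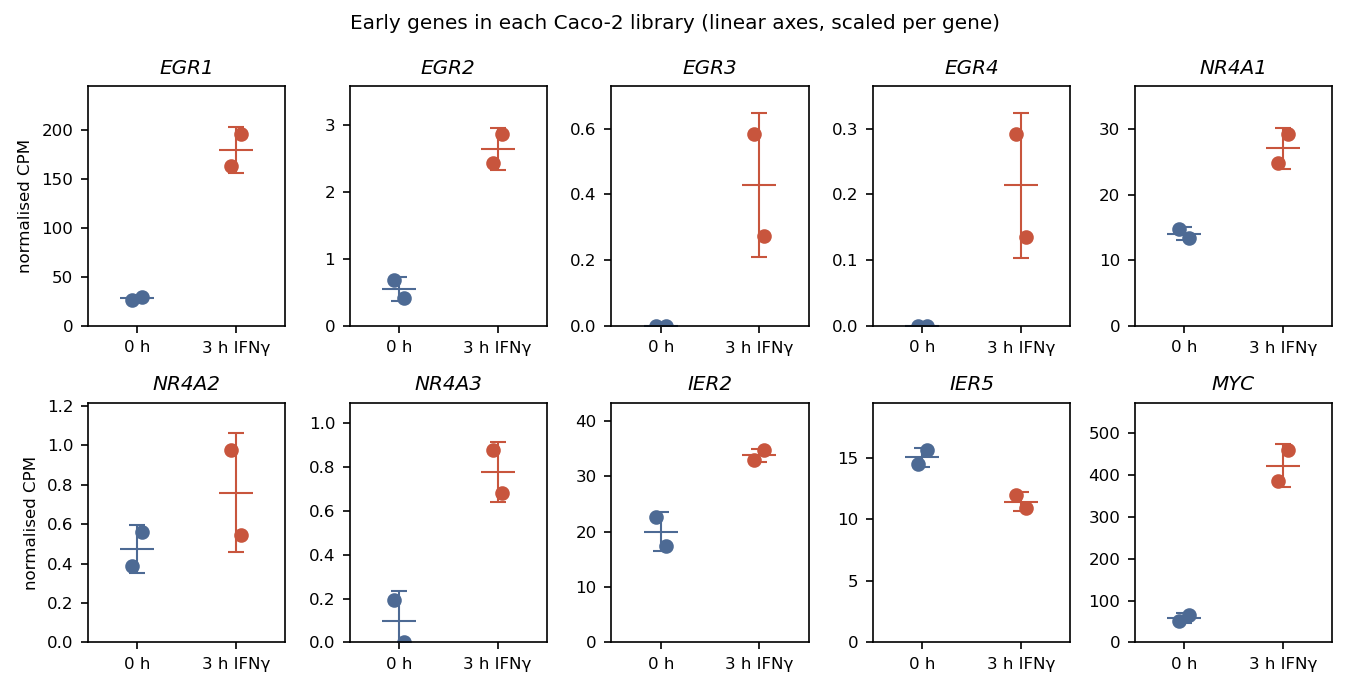
Levels of the 10 early genes in each library, in TMM-scaled CPM on linear axes that start at 0 and are scaled per gene. Points are single libraries, blue for unstimulated cells at 0 h and red for 3 h of IFNγ, with the mean and SD of the 2 libraries as bars. MYC and EGR1 lie apart between the groups by several fold, IER5 lies slightly lower with IFNγ, and the NR4A2 libraries overlap.

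EGR1 (ENSG00000120738, GRCh37 chromosome 5, 137801168 to 137804992, plus strand) encodes the founding member of the EGR family. Unstimulated cells gave 271 and 213 counts and IFNγ-treated cells 1677 and 1440, equal to 26.4 and 29.8 CPM against 163 and 196 CPM. Both IFNγ libraries lay far above both unstimulated ones, with ratios of 5.47 to 7.45 over the 4 pairs of libraries. The mean went from 28.1 ± 2.44 to 180 ± 23.6 CPM (SD, n = 2 each), and the log2 fold change of 2.68 had an SE of 0.15 and an adjusted p of 0.000226 in edgeR. This was the 53rd highest log2 fold change of the tested genes, and EGR1 moved from above 54.6% of the tested genes to above 92.6% of them in mean CPM.

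EGR2 (ENSG00000122877, chromosome 10, 64571756 to 64578927, minus strand), known for its part in myelination and lymphocyte tolerance, was low. It had 7 and 3 counts without IFNγ and 25 and 21 counts with it, and the groups did not overlap. The pooled counts of 10 and 46 gave a depth-scaled ratio of 4.55, with an exact 95% interval of 2.26 to 10.1 that covers counting error only. In edgeR its log2 fold change of 2.18 had an SE of 0.46 and an adjusted p of 0.0169. The call was lost when unstimulated replicate 1 was left out (log2 fold change 2.60, adjusted p 0.0549 in edgeR) and when unstimulated replicate 2 was left out (1.93, adjusted p 0.0682 in edgeR). DESeq2 gave EGR2 no adjusted p, since its independent filtering removed the gene.

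EGR3 and EGR4, the remaining EGR paralogs, had 0 counts in both unstimulated libraries. EGR3 had 6 and 2 counts with IFNγ, and EGR4 had 3 and 1. Against a floor of 3 counts over the unstimulated group, or 0.172 CPM, the depth-scaled ratio was 2.64 for EGR3 and 1.32 for EGR4. These ratios take the few IFNγ counts as exact, so they are not lower limits of a difference. Both were near the limit of detection at this depth. Per kilobase of exon, EGR1 made up 97.9% and 98.8% of the summed EGR level without IFNγ and 98.3% and 98.6% with it, so the family was EGR1 transcript almost entirely in all 4 libraries.

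NR4A1 (ENSG00000123358, chromosome 12, 52416616 to 52453291, plus strand), which encodes the nuclear receptor also called NUR77, had 152 and 96 counts without IFNγ and 256 and 215 with it. These were 14.8 and 13.4 CPM against 24.9 and 29.3 CPM, and the groups did not overlap. The means were 14.1 ± 0.955 and 27.1 ± 3.14 CPM (SD, n = 2 each), a log2 fold change of 0.93 with an SE of 0.17 and an adjusted p of 0.00961 in edgeR. The fold threshold was crossed when unstimulated replicate 1 (1.01) or IFNγ replicate 1 (1.04) was left out. An antisense gene, NR4A1AS, overlaps NR4A1 and was listed at 0 counts in each library.

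NR4A2 and NR4A3 encode the other receptors of the family and were barely detected. NR4A2 had 4 counts in each unstimulated library and 10 and 4 with IFNγ, so the groups overlapped, and the ratio of pooled counts of 1.73 had an exact 95% interval of 0.677 to 4.76. A difference in NR4A2 was not detectable at this depth. NR4A3 had 2 and 0 counts without IFNγ and 9 and 5 with it. Its groups did not overlap, and the pooled ratio of 6.92 had a wide exact 95% interval, 1.59 to 62.7. NR4A1 made up 94.2% and 93.1% of the NR4A level per kilobase without IFNγ and 90.1% and 94.4% with it.

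IER2 (ENSG00000160888, chromosome 19, 13261225 to 13265725, plus strand) had 232 and 125 counts without IFNγ and 339 and 254 with it. In CPM these were 22.6 and 17.5 against 33.0 and 34.7, with no overlap. The means were 20.1 ± 3.59 and 33.8 ± 1.19 CPM (SD, n = 2 each), and the log2 fold change of 0.74 had an SE of 0.17 and an adjusted p of 0.0223 in edgeR. The unstimulated libraries differed from each other more than the IFNγ libraries did. Exons of 2 genes on the opposite strand, which have no row in the table, overlap those of IER2. Without unstimulated replicate 2 the log2 fold change was 0.58 with an adjusted p of 0.0909 in edgeR. With a trend in GC content and length removed it was 0.52 with an adjusted p of 0.0528 in edgeR.

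GC content moved with the comparison over the whole table. Across the tested genes, the log2 fold change and exon GC content had a Spearman rho of 0.431, which is a description over genes that are not independent replicates and share the same 4 libraries. The exon sequence of IER2 had a GC content of 61.7%, NR4A1 59.8%, EGR1 55.3% and MYC 48.8%. Over the alternatives, which included removal of the GC trend, the log2 fold change of MYC stayed between 2.68 and 3.07 and that of EGR1 between 2.47 and 2.80.

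IER5 (ENSG00000162783, chromosome 1, 181057836 to 181062036, plus strand), a relative of IER2 that is known as a regulator of heat shock factor, had 149 and 111 counts without IFNγ and 123 and 80 with it. In CPM the values were 14.5 and 15.6 against 12.0 and 10.9, so IER5 was the only one of the 10 whose IFNγ libraries both lay below the unstimulated ones. The log2 fold change of -0.39 had an SE of 0.18 and an adjusted p of 0.165 in edgeR and did not pass. Over the alternatives its adjusted p ran from 0.0442 to 0.425, and it was under the threshold only in edgeR with the GC trend removed and the replicate number as a block.

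MYC (ENSG00000136997, GRCh37 chromosome 8, 128747680 to 128755197, plus strand) had the highest count of the group in every library. It had 516 and 471 counts without IFNγ and 3977 and 3365 with it, which were 50.2 and 66.0 CPM against 387 and 459 CPM. The lower IFNγ library was 5.86 times the higher unstimulated library, and the widest pair differed 9.14 times. The means were 58.1 ± 11.1 and 423 ± 51.1 CPM (SD, n = 2 each), and the log2 fold change of 2.87 had an SE of 0.17 and an adjusted p of 0.000287 in edgeR. It was the 49th highest log2 fold change of the tested genes. MYC went from above 72.4% of the tested genes to above 97.8% of them in mean CPM. CASC11, an antisense gene whose exons overlap MYC, had at most 3 counts in any library.

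**Figure D3:**
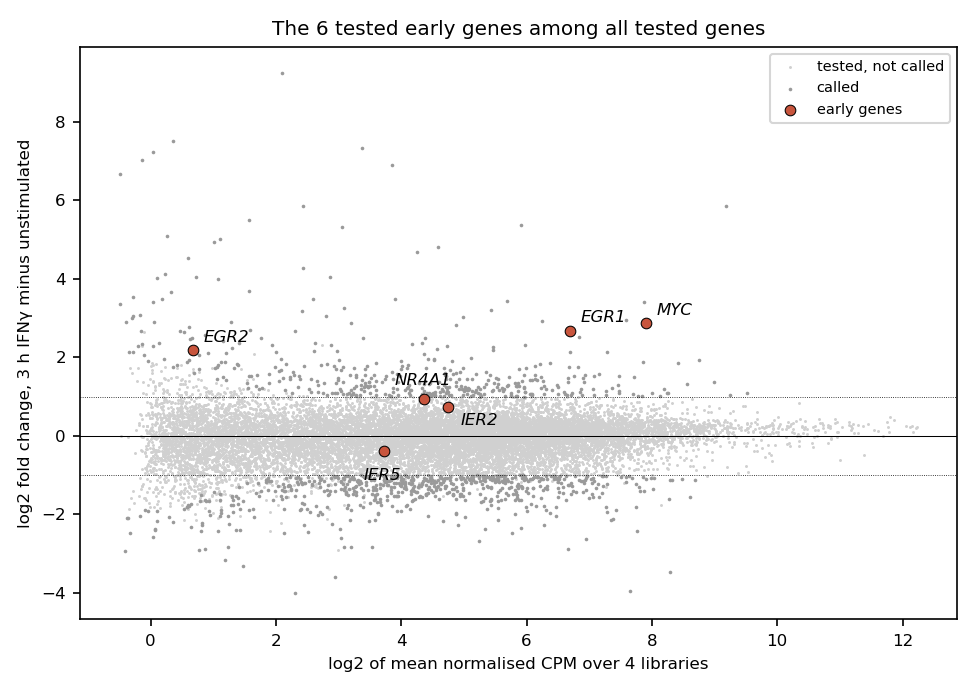
Log2 fold change (IFNγ minus unstimulated) against mean expression for the 14820 genes tested, with the 6 tested early genes in red. The horizontal axis is log2 of the mean TMM-scaled CPM over the 4 libraries, darker grey points were called, and the dotted lines are the fold threshold of 1 in either direction. MYC at 2.87 and EGR1 at 2.68 lie high among well expressed genes, EGR2 at 2.18 lies at low expression, and IER5 at -0.39 lies within the bulk of the genes.

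The order of levels can be read only per length. In CPM per kilobase of the union of exons, the unstimulated means ran from MYC at 9.51 ± 1.82 through EGR1 at 8.96 ± 0.779, IER2 at 6.51 ± 1.17, IER5 at 3.58 ± 0.176 and NR4A1 at 1.94 ± 0.131 to EGR2 at 0.149 ± 0.0498 and NR4A2 at 0.116 ± 0.0294 (SD, n = 2 each). NR4A3 followed at 0.0154 and EGR3 and EGR4 were at 0. The libraries of MYC and EGR1 overlapped in this order, as did those of EGR2 and NR4A2. The libraries of the other neighbours above EGR2 did not overlap.

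With IFNγ the level per kilobase was 69.2 ± 8.37 CPM for MYC, 57.3 ± 7.52 for EGR1, 11.0 ± 0.386 for IER2, 3.72 ± 0.43 for NR4A1 and 2.72 ± 0.176 for IER5 (SD, n = 2 each). NR4A1 was thus below IER5 in both unstimulated libraries and above it in both IFNγ libraries. The IFNγ means of MYC and EGR1 differed by less than their summed SDs. Their IFNγ libraries, MYC at 63.3 and 75.2 and EGR1 at 52 and 62.6 CPM per kilobase, did not overlap. By the longest transcript in place of the union of exons, MYC stood at 15.6 and 114 CPM per kilobase and EGR1 at 8.96 and 57.3. The libraries of MYC and EGR1 did not overlap in either group by that length. Within each group, the order of the means of these 5 genes was the same by both lengths.

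Proteins that work with these factors, and relatives of the IER and MYC genes, were listed together as 19 partner genes, of which 18 were tested. In edgeR 1 was called higher and 2 lower, beside 2.88% and 4.40% of all tested genes. The median log2 fold change was -0.14 against -0.01 over all tested genes. Those called lower were MXD1 and MXI1, which compete with MYC for MAX and repress transcription at E-boxes. MXD1 had 1068 and 678 counts without IFNγ and 279 and 217 with it, a fall from 99.5 ± 6.37 to 28.4 ± 1.75 CPM (SD, n = 2 each). Its log2 fold change was -1.81 with an SE of 0.13 and an adjusted p of 0.000608 in edgeR.

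MXI1 had 737 and 525 counts without IFNγ and 200 and 158 with it. Its log2 fold change of -1.83 had an SE of 0.14 and an adjusted p of 0.000633 in edgeR, and both MXI1 and MXD1 kept the call under every alternative run. Per kilobase of exon, MXD1 at 16.4 and 15.0 CPM and MXI1 at 12.1 and 12.5 were above MYC at 8.22 and 10.8 in the unstimulated libraries. With IFNγ, MYC at 63.3 and 75.2 CPM per kilobase was above MXD1 at 4.27 and 4.66 and MXI1 at 3.29 and 3.65. By the longest transcript, MXI1 was also above MYC in both unstimulated libraries, whereas MYC at 17.7 and MXD1 at 17.0 CPM per kilobase changed places in replicate 2.

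MAX, the shared partner, stood at 6.16 ± 1.33 and 7.12 ± 0.545 CPM per kilobase (SD, n = 2 each), and its log2 fold change of 0.20 did not pass (adjusted p = 0.46 in edgeR). MXD3, a further repressor of the MAX network, had a log2 fold change of -0.87 with an adjusted p of 0.0491 in edgeR, which did not pass in 6 of 13 alternatives, while MXD3 was called lower in 4 of them, at -1.11 to -1.13. MXD4, MNT and MGA, which also bind MAX or MLX, did not pass, with log2 fold changes of 0.10, -0.38 and -0.66. MYCN and MYCL, the paralogs of MYC, had 115 and 108 against 174 and 136 counts and 15 and 13 against 15 and 7 counts, and neither passed.

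NAB1 and NAB2 are corepressors that bind EGR proteins, and NAB2 is itself known as an EGR target. Neither passed, NAB1 at a log2 fold change of -0.13 (adjusted p = 0.528 in edgeR) and NAB2 at 0.21 (adjusted p = 0.405 in edgeR). RXRA and RXRB, which pair with NR4A1 and NR4A2, had log2 fold changes of 0.17 and -0.16 and did not pass, and RXRG had 0 counts in each library. IER3 was the gene of the partner list that was called higher. It shares a name with the IER genes but is best known as a survival gene downstream of NF-κB. It had 58 and 57 counts without IFNγ and 241 and 198 with it, a log2 fold change of 1.90 with an SE of 0.22 and an adjusted p of 0.00229 in edgeR. IER5L, the paralog of IER5, had 40 and 21 against 12 and 13 counts and a log2 fold change of -1.25, and did not pass (adjusted p = 0.064 in edgeR).

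Of 18 upstream factors and kinases that act on early gene promoters, 17 were tested. In edgeR 0 were called higher and 1 lower, beside 2.88% and 4.40% of all tested genes. At an unadjusted p under 0.05 in edgeR 4 of them were higher and 3 lower, beside 2454 and 2785 of all 14820 tested genes. DESeq2 also called 0 higher and 1 lower, beside 329 and 576 over all genes. The median log2 fold change was 0.05. The gene called lower was MRTFB, an actin-regulated coactivator of SRF, at 72.9 and 51.0 CPM without IFNγ and 30.3 and 18.6 CPM with it. Its log2 fold change was -1.33 with an SE of 0.26 and an adjusted p of 0.0128 in edgeR.

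SRF itself had a log2 fold change of 0.39 and did not pass (adjusted p = 0.0685 in edgeR). ELK1, an ETS factor that binds next to SRF, rose from 26.7 ± 4.1 to 49.4 ± 5.14 CPM (SD, n = 2 each), a log2 fold change of 0.89 with an adjusted p of 0.0105 in edgeR, under the fold threshold. CREB1, the CRE-binding factor, was at -0.71 on the log2 scale (adjusted p = 0.0139 in edgeR), and its coactivator CRTC2 at -0.58 (adjusted p = 0.0335 in edgeR). The value of CREB1 was -0.03 with the GC trend removed and did not pass then, and CRTC2 did not pass without unstimulated replicate 1 or without IFNγ replicate 1.

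A list of 30 other immediate-early genes, outside the AP-1, KLF, DUSP and ID families, had 28 genes tested. Of these, 9 were called higher and 2 lower in edgeR, beside 2.88% and 4.40% of all tested genes. The median log2 fold change was 0.59. The 9 were the polo-like kinase genes PLK2 (2.31) and PLK3 (2.16), the matrix protein gene CCN1 (2.22), TRIB1 (2.19), which encodes a pseudokinase, the GTPase gene RHOB (1.54), the small MAF factor gene MAFF (1.45), the kinase gene SGK1 (1.32), CSRNP1 (1.26) and the anti-apoptotic gene MCL1 (1.09). MCL1 came to 1.00 and lost the call without unstimulated replicate 1. CCN1 had 93 and 53 counts without IFNγ and 265 and 384 with it, and its IFNγ libraries differed from each other by more than those of PLK3, which had 30 and 20 against 138 and 90 counts. The log2 fold change of CCN1 was 1.61 without IFNγ replicate 2 and 2.64 without IFNγ replicate 1, and it was called in both.

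The 2 genes called lower were NFIL3, a circadian and immune bZIP factor, and PIM1, a gene that encodes a survival kinase. NFIL3 had 738 and 570 counts without IFNγ and 171 and 129 with it, a log2 fold change of -2.15 with an SE of 0.14 and an adjusted p of 0.000431 in edgeR. PIM1 had 664 and 467 against 275 and 229 counts and a log2 fold change of -1.17 with an adjusted p of 0.00267 in edgeR. The antiproliferative genes BTG2 and BTG1 passed the adjusted p at log2 fold changes of -0.82 and -0.52, and SIK1 and CEBPB did so at 0.83 and 0.64. BTG1 and CEBPB did not pass in 4 and 8 of the 13 alternatives.

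**Figure D4:**
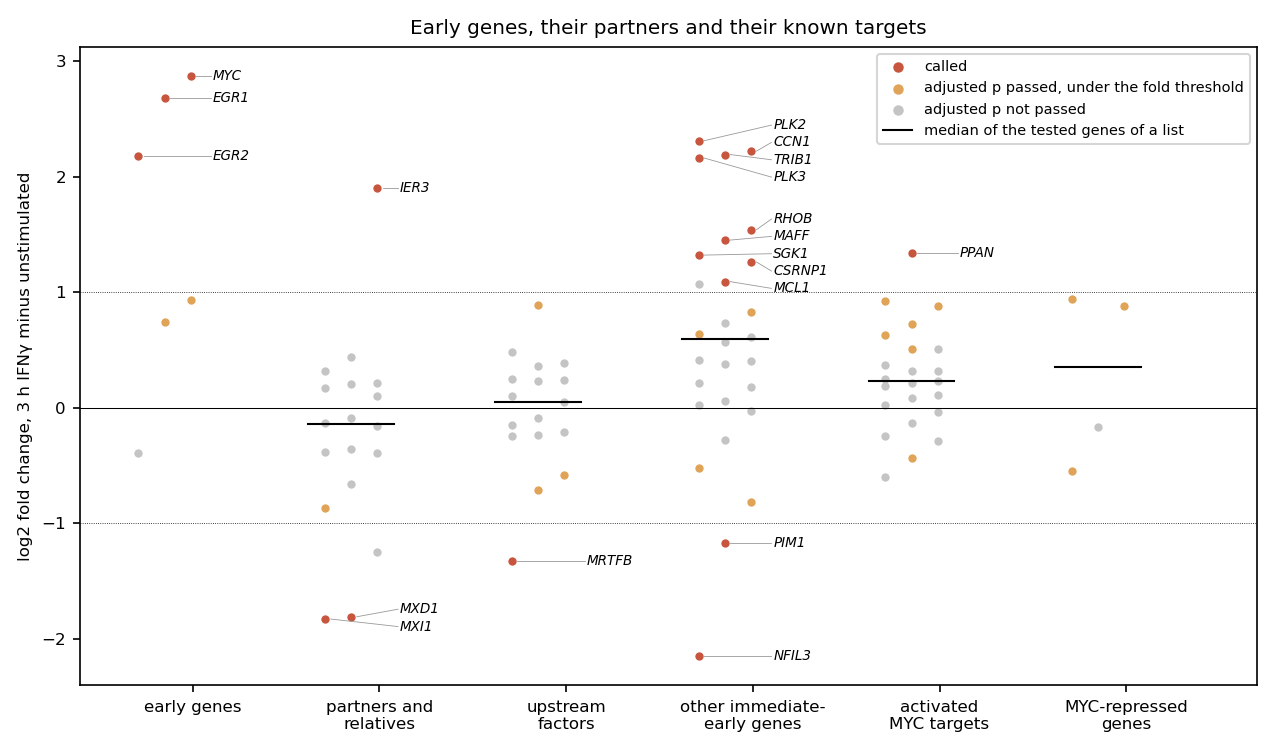
Log2 fold change (IFNγ minus unstimulated) of each tested gene in the early genes, the partner, upstream, other immediate-early, MYC target and MYC repressed lists. Red points met the call rule, orange points passed the adjusted p only, and grey points did not pass it. Short lines are medians of a list, none being drawn for the early genes. The other immediate-early genes spread from -2.15 to 2.31, and the MYC target genes from -0.60 to 1.34.

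All 23 genes of a list commonly given as activated by MYC were tested. In edgeR 1 was called higher and 0 lower, beside 2.88% and 4.40% of all tested genes. At an unadjusted p under 0.05 in edgeR 7 were higher and 1 lower, beside 2454 and 2785 of all 14820 tested genes. DESeq2 called 0 in either direction, beside 329 higher and 576 lower over all genes. The median log2 fold change was 0.23. With edgeR's adjusted p alone, 6 were higher and 1 lower, beside 9.02% and 11.0% of all tested genes. Those higher were the ribosome production genes NOP16 (0.92), MRTO4 (0.88), NOP56 (0.72), UBTF (0.63) and PPAN (1.34), and ODC1 (0.51), which encodes the first enzyme of polyamine synthesis. Other ribosome production genes of the list did not pass, namely NCL (0.21), NPM1 (-0.29), NOLC1 (-0.04), FBL (0.25), RRP12 (0.19), POLR1B (0.11) and BOP1 (0.08). CAD, a pyrimidine synthesis gene, had a log2 fold change of -0.44 with an adjusted p of 0.0341 in edgeR.

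PPAN, the gene called higher, had 14 counts in each unstimulated library and 42 and 31 with IFNγ. Its call was lost in 5 of 12 alternatives, among them each library left out in turn, and the read-through gene PPAN-P2RY11 shares its exons. NOP56 had 75.2 and 82.2 CPM without IFNγ and 134 and 125 CPM with it, and NOP16 had 17.8 and 17.9 CPM against 33.4 and 34.2 CPM. Neither pair of groups overlapped, and both genes passed the adjusted p under every alternative run.

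Of 4 cell cycle inhibitor genes commonly given as repressed by MYC, 0 were called in either direction by edgeR or by DESeq2. At an unadjusted p under 0.05 in edgeR 2 were higher and 1 lower, beside 2454 and 2785 of all 14820 tested genes. CDKN1A, which encodes p21, went from 97.1 ± 2.94 to 179 ± 13.0 CPM (SD, n = 2 each), a log2 fold change of 0.88 with an adjusted p of 0.00364 in edgeR. CDKN2B had a log2 fold change of 0.94 with an adjusted p of 0.0298 and CDKN1B one of -0.55 with an adjusted p of 0.0472 in edgeR, each of which did not pass in 5 of 13 alternatives. CDKN2B was called higher, at 1.04, in the 2 settings with the GC trend removed. CDKN1C did not pass at -0.17.

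**Figure D5:**
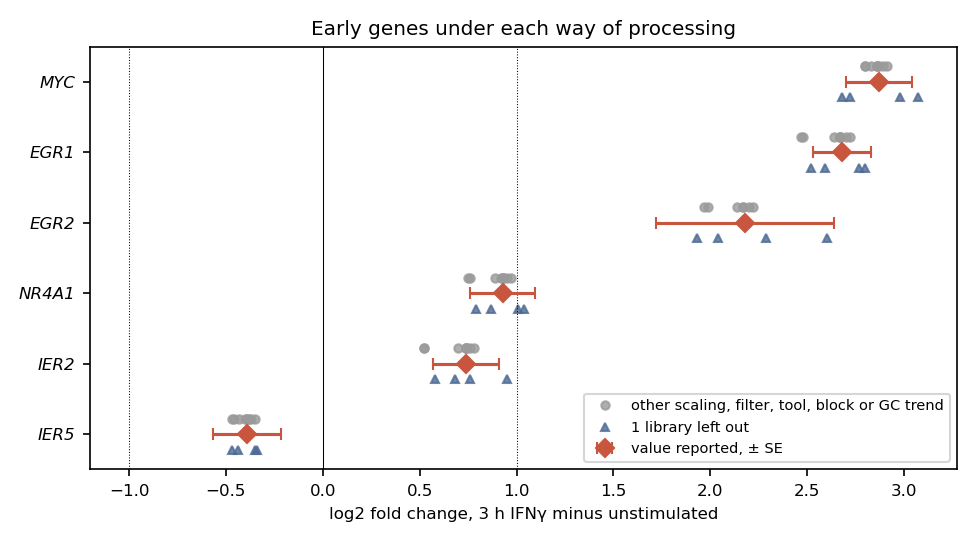
Log2 fold change of the 6 tested early genes (IFNγ minus unstimulated) under each processing alternative. Red diamonds with bars are the reported value ± SE, triangles have 1 library left out, grey points are other settings, and dotted lines are the fold threshold. MYC stays between 2.68 and 3.07 and EGR1 between 2.47 and 2.80, whereas NR4A1 lies close to the threshold, between 0.75 and 1.04.

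Over the whole table, the libraries held 7171455 to 10365346 counts, so 1 CPM stood for 7.17 to 10.4 counts. The 50 highest genes took 12.1% to 12.2% of the counts without IFNγ and 13.1% to 13.6% with it. Of 9 genes known to respond to IFNγ, 8 were tested and 6 called higher, which is in the direction of the labels. The summed level of 12 epithelial markers was 7450 and 8164 CPM without IFNγ and 8833 and 9352 CPM with it. CDX2 was called higher and SI lower. With edgeR's adjusted p alone, 4 of the 12 were higher and 1 lower, beside 9.02% and 11.0% of all tested genes. Leukocyte markers summed to 6.43 to 8.27 and 9.43 to 11.3 CPM, with PTPRC at 0 in the unstimulated libraries and at most 2 counts with IFNγ. CD14 had 36 and 34 counts without IFNγ and 59 and 65 with it and did not pass (log2 fold change 0.82, adjusted p = 0.116 in edgeR). CD3E had 4 and 4 against 10 and 6 counts, LYZ 22 and 21 against 26 and 12, and CD68 at most 4. Fibroblast and endothelial markers summed to 94.8 to 186 and 130 to 175 CPM, nearly all of it COL1A1, while COL1A2 had at most 1 count. The part of these marker differences in the values of the early genes was not tested.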

How the data were processed

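RNA-seq counts were analysed for 2 unstimulated and 2 IFNγ-stimulated Caco-2 libraries, grouped by their labels. The authors deposited an unnormalised table of read counts by Ensembl gene identifier, 1 column per library; the submitters' processing notes name HISAT 0.5.1 and HTSeq 0.6.1p1. The genome build, annotation and strand setting were not given in the sources used here, so genes that overlap on opposite strands are uncertain. Of 37515 genes listed, 8158 were at 0 in all libraries and 96.5% had a symbol.

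Counts were scaled by TMM and tested with the quasi-likelihood test of edgeR 4.0.16 in R 4.3.3 after its default filter on low counts, without a block, which left 14820 genes. A gene was called at a Benjamini-Hochberg adjusted p under 0.05 together with a log2 fold change beyond 1 in either direction. The SE was the size of the log2 fold change divided by the root of the F statistic. A prior count of 2 entered only the log2 CPM behind the GC trend and behind the correlation of same-numbered libraries. Untested genes were compared by pooled counts with exact conditional binomial intervals at 95%, or against a floor of 3 counts. Gene positions, GC content and lengths came from GENCODE 44 on GRCh37, which may differ from the one behind the counts, and promoter windows from RefSeq on GRCh38.p14. The scripts were tested on simulated data.

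Alternatives were DESeq2 1.42.0, its size factors in edgeR, scaling by upper quartile or by library size alone, no filter, at least 10 counts in every library, the replicate number as a block, removal of a loess trend (span 0.3) in GC content and length, each library left out in turn, and no fold threshold. Removal of the GC trend with the block was added after seeing the data. The early genes and all lists were chosen with earlier results of these data known. All early genes were named, list genes were named where called, and partners and upstream factors where tested; list genes that passed only the adjusted p, RXRG, and ribosome production genes of the MYC target list and leukocyte markers that did not pass, were named in addition after their values were seen. A motif and a gene in each of the IFNγ response and leukocyte lists are not reported here.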

Additional observations from a re-analysis of the deposited data

How the results depend on the processing

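The calls of MYC and EGR1 were kept under all 13 alternatives to the main test. With 1 library left out at a time, EGR2 ran from 1.93 to 2.60, NR4A1 from 0.79 to 1.04 and the genes called lower from 504 to 1239 (1239 without IFNγ replicate 1), partners called lower from 2 to 4, upstream genes called higher from 0 to 1 and MYC targets called higher from 0 to 1. The library left alone in its group was then assumed to vary like the other group. Without a fold threshold, NR4A1 (0.93) and IER2 (0.74) were called, so that 5 early genes were higher. On that rule 1337 genes in all were higher and 1626 lower. Upstream genes numbered 1 higher and 3 lower, and other immediate-early genes 11 higher and 4 lower. MYC targets numbered 6 higher and 1 lower, and MYC repressed genes 2 higher and 1 lower. Removal of the GC and length trend left 307 genes called lower in all, with 4 partners lower, 0 MYC targets higher and 1 MYC repressed gene higher. DESeq2 called 0 MYC targets higher. Of 428 values of the 33 other listed genes that passed the adjusted p, 0 changed direction. The cause of these shifts was not tested.

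Libraries of the 2 groups share only replicate numbers, and deviations of same-numbered libraries from their group means correlated at 0.415 across genes. With the replicate number as a block, 492 genes were called higher and 896 lower, against 427 and 652 without it. The same early genes were called, with log2 fold changes of 2.87 for MYC, 2.67 for EGR1 and 2.17 for EGR2, while NR4A1 (0.92) and IER2 (0.74) stayed under the fold threshold. IER5 was at -0.38 and did not pass (adjusted p = 0.104 in edgeR). With the block and the GC trend removed together, 4 partners were called lower and 1 MYC repressed gene higher. Without a filter, the p-values rest on a different estimate of the spread and are not comparable. With 2 libraries per group and about 7 to 10 counts per CPM, the default filter left out EGR3, EGR4, NR4A2 and NR4A3, whose counts were low.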
